A study of Mus musculus with 8 samples.

Results

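The genes described here carry out the steps that turn a membrane-bound Notch ligand and receptor into a signal. They are 9 genes named by symbol: the ubiquitin ligase genes Mib1, Mib2, Neurl1a and Neurl1b, the metalloprotease genes Adam10 and Adam17, and the gamma-secretase genes Psen2, Ncstn and Aph1a. All 9 were found among the 13869 genes of the deposited table, and all 9 were among the 13740 that passed the filter on low values. Polyadenylated RNA of ventricles, taken from mouse embryos at E14.5, was sequenced from 1 end. The mutant group (labelled Mib1flox; TnT-Cre) carried a floxed Mib1 allele and Cre recombinase driven by the cardiac troponin T promoter, which is active in cardiomyocytes, and the other group was wild-type siblings. Whether wild-type embryos carried Cre or a floxed allele is not stated in the labels. Each of the 4 libraries per group is a pool, made from 16 hearts per genotype in all, and since nothing says that pools came from separate litters the p values measure only the spread between these pools.

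Notch ligands work only when the cell that carries them pulls on the receptor of its neighbour. MIB1 and its relatives attach ubiquitin to the ligand's intracellular part, which sends the ligand into endocytosis and supplies that pull. The pull exposes the receptor to cleavage by ADAM10 (or, in some settings, ADAM17), and gamma-secretase then cuts the remaining stub within the membrane and frees the intracellular domain that acts in the nucleus. In the developing heart wall cardiomyocytes make ligands and the endocardium that lines them carries active receptor.

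The libraries held between 6307634 and 11506082 counts each. Levels are in CPM, that is counts per 1000000 after scaling of library sizes, and 3 counts, the limit that a count of 0 allows, corresponded to 0.265 to 0.472 CPM for counting error only.

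Over the whole table, limma (a linear model on log2 CPM, Benjamini-Hochberg adjusted over all genes tested, called at an adjusted p under 0.05) called 2.24% of genes, 0.99% higher and 1.25% lower in the mutants. Of the 9 members 2 were called, Mib1 and Ncstn, both lower, and none was higher. At an unadjusted p under 0.05 there were 4 of 9 members, against 14.8% of all genes. The same 4 members had mutant libraries that all lay below all wild-type libraries, which held for 4.65% of all genes, and no member showed the opposite arrangement, which held for 4.27%. These shares describe the members and test nothing.

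All 15 cardiomyocyte markers on the list used were in the table. Their summed level was 45400 to 48600 CPM in the mutants and 47200 to 51700 CPM in wild type. Of these markers 1 rose and none was called lower, although 10 of the 15 had a log2 difference below 0. Among those 10, Tnnt2 and Myl2 were lower without overlap between groups. No tested marker of any cell type was at 0 in all libraries. Markers of some other cells were lower in the mutant libraries: 5 of 14 endothelial and endocardial genes were called lower (summed level 1330 to 1380 against 1570 to 1620 CPM), as were 3 of 10 macrophage genes (72.3 to 89 against 106 to 129 CPM) and 2 of 8 erythroid genes (1850 to 3090 against 2880 to 3950 CPM). Called or not, 13 of these 14, 10 of 10 and 8 of 8 genes had a log2 difference below 0, against 6833 of 13740 genes tested. The list medians were −0.244, −0.521 and −0.52. Of the smooth muscle and pericyte genes 2 of 8 rose and 1 fell, 1 of 9 fibroblast and 1 of 8 atrial genes fell, and none of 8 epicardial or 4 tested neural genes was called. In bulk tissue, fewer cells of a type and less RNA per cell cannot be told apart. The part of these cell types in the differences below was not tested.

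To show the control regions of a ligase with equal group means and of a gamma-secretase subunit that was lower in every mutant library, the 250 bases before a RefSeq start of Mib2 (chr4:155669220-155669469, minus strand) and Aph1a (chr3:95893671-95893920, plus strand) are printed, 5′ to 3′, from assembly GRCm38.p6. Capitals mark matches on either strand to the motifs searched, none of which overlap in these windows. The GC box was searched as GGGCGG. The CCAAT box was searched by the letters of its name. The motif of ETS factors was searched as CCGGAAG.
Mib2: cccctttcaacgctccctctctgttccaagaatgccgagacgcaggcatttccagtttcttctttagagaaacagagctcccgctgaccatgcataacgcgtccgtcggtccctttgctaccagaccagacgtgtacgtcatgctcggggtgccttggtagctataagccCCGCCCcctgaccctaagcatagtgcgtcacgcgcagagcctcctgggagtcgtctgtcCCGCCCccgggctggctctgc
Aph1a: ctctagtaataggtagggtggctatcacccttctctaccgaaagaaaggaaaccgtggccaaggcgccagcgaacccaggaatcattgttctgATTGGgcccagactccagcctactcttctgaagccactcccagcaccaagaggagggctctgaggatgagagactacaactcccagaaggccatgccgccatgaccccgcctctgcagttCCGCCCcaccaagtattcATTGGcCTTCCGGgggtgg
The Mib2 window held 2 GC boxes and neither of the other motifs (the window of its other RefSeq start also held 1 ETS motif), while the Aph1a window held 1 GC box, 2 CCAAT boxes and 1 ETS motif. Among 32851 such windows of the mouse genome 32.7% held a GC box, 33.8% a CCAAT box and 6.91% an ETS motif. The core motif of RBPJ, the DNA-binding partner of Notch, searched as TGGGAA on both strands, was in neither window and in 21.6% of all windows. Among the windows found for the other members, only that of 1 RefSeq start of Psen2 held this core motif, with 1 match. Of the 10 windows found for the 8 members other than Mib1, 6 were free of annotated exons, and the 2 printed windows were taken from these.

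Mib1, the targeted gene (ENSMUSG00000024294), encodes an E3 ubiquitin ligase of Notch ligands. Mib1 stood at 106, 103, 95.3 and 96.3 CPM in the mutants, while wild type had 150, 166, 160 and 167 CPM. Every mutant library lay below every wild-type library, with a gap far wider than the spread within either group. The mean fell by 37.7% (95% interval −42.6% to −32.3%), from 161 ± 7.48 to 100 ± 5.33 CPM (SD, n = 4). On the log2 scale this was −0.68 ± 0.06 (SE; limma adjusted p = 8.62e-06), and an exact two-sided permutation test gave p = 0.0286, the smallest that 4 against 4 libraries allow. The remaining transcript rested on 637 to 1207 counts per mutant library. The tissue holds cells in which this Cre is not active, and counts cover the whole gene, so how much of the remainder is undeleted transcript was not tested.

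**Figure D1:**
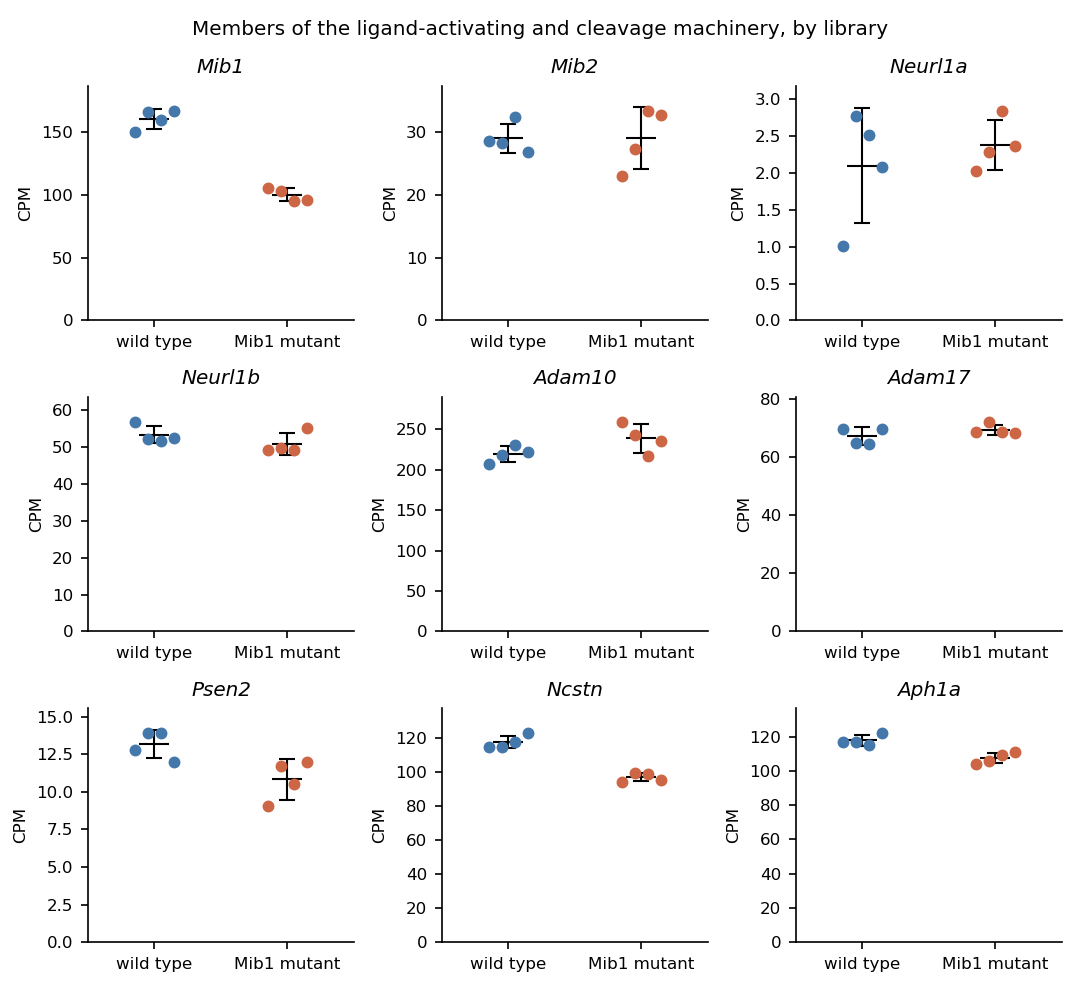
Level of each of the 9 members in CPM (vertical axis from 0, own scale per panel) in 4 wild-type (blue) and 4 Mib1 mutant (orange) libraries, with the mean and SD in black. Mib1 and Ncstn show a clear gap between the groups, Aph1a a narrow one, and in Psen2 the highest mutant and the lowest wild-type library meet at 12 CPM.

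Mib2 (ENSMUSG00000029060) encodes the closest relative of MIB1 and can also ubiquitinate Notch ligands. It stood at 23, 27.4, 33.4 and 32.8 CPM in the mutants and at 28.7, 28.3, 32.4 and 26.9 CPM in wild type. The mutant libraries spanned the whole wild-type range and exceeded it at both ends, with mutant replicate 1 lowest. The group means were equal, 29.1 ± 4.89 and 29.1 ± 2.37 CPM (SD, n = 4), which on the log2 scale was −0.01 ± 0.11 (SE; limma adjusted p = 0.981). The 95% interval of the change in the mean of the whole tissue ran from −16% to 17.2%. The tissue also holds cells in which this Cre is not active, and a rise confined to the cells with active Cre was not tested. Without mutant replicate 1 the log2 difference was 0.10 ± 0.09 (SE), with a limma adjusted p of 0.741.

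Neurl1b (ENSMUSG00000034413), a Neuralized-type ligand ubiquitin ligase gene, was the other ligase with a substantial level. The mutants gave 49.2, 49.7, 49.2 and 55.3 CPM and wild type 56.8, 52.3, 51.8 and 52.6 CPM. Of the mutant libraries, 3 lay below all wild-type libraries and mutant replicate 4 lay among them. The change was −4.73% with a 95% interval of −13.3% to 4.66% (limma adjusted p = 0.66). Its interval was the narrowest of the 3 other ligases.

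Neurl1a (ENSMUSG00000006435), the Neuralized gene first known from the nervous system, was close to the limit of detection. It gave 2.03, 2.29, 2.84 and 2.37 CPM in the mutants and 1.01, 2.78, 2.52 and 2.08 CPM in wild type, from 7 to 25 counts per library. Wild-type replicate 1 was low and the other 7 libraries overlapped. The difference of 0.26 ± 0.30 on the log2 scale (SE; limma adjusted p = 0.748) had a 95% interval from −23.8% to 87%, and it changed sign to −0.05 without wild-type replicate 1. A same-strand gene model covers 9.47% of its annotated exon bases, so reads there may have been shared. These libraries leave any change within that interval possible.

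Set per length of exon, which allows levels of different genes to be compared, Mib1 was the most abundant of the 4 ligase transcripts in both groups. In wild type it stood at 15.7 ± 0.731 CPM per kb, against 8.43 ± 0.363 for Neurl1b, 7.99 ± 0.65 for Mib2 and 0.288 ± 0.107 for Neurl1a (SD, n = 4). In the mutants Mib1 was at 9.8 ± 0.521 CPM per kb, still above Neurl1b at 8.04 ± 0.469 and Mib2 at 8 ± 1.34, whose ranges overlapped each other in both groups. The mutant Mib1 level holds all counts of the gene from all cells of the tissue. How much of it is undeleted transcript was not tested, which also limits the share and sum below. The share of Mib1 in the summed level of the 4 ligases was 46.4% to 50.5% in wild type and 34.3% to 42% in the mutants. The sum itself was 32.4 ± 0.606 CPM per kb in wild type and 26.2 in the mutants (range 24.8 to 27.5), 6.26 lower. Mib1 alone was 5.92 CPM per kb lower, and the sum of the other 3 was 16.7 ± 0.641 in wild type and 16.4 ± 1.66 in the mutants. No rise of Mib2, Neurl1a or Neurl1b was called, and their summed levels overlapped between groups, at 16 to 17.4 in wild type and 14.4 to 18.1 in the mutants. With the longest annotated transcript in place of all exons, the Mib1 share was 47.9 ± 1.84% and 37 ± 3.6%.

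**Figure D2:**
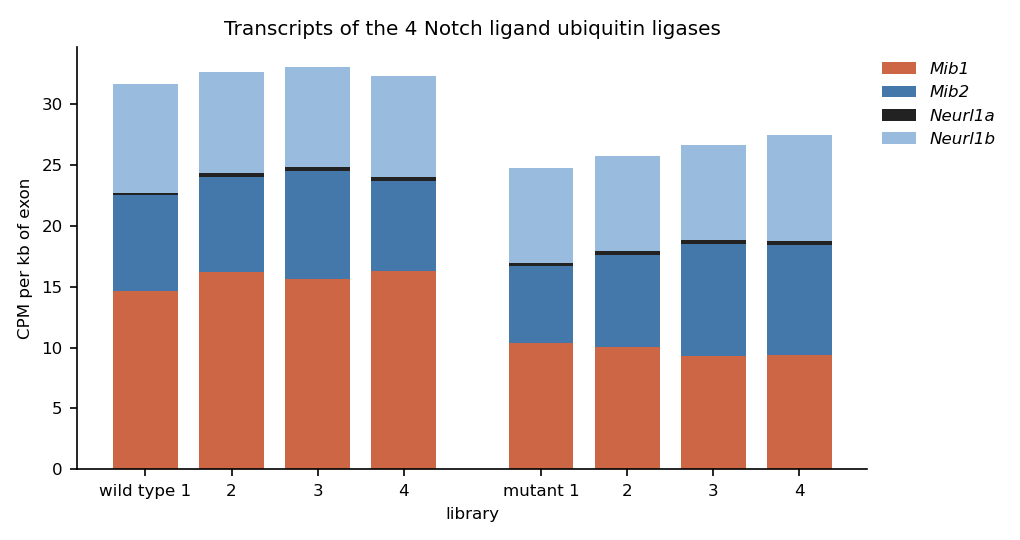
Summed transcript level of the 4 Notch ligand ubiquitin ligases in each library, in CPM per kb of exon, with 1 bar per library and 1 colour per gene. The Mib1 part shrinks from between 14.7 and 16.3 in wild type to between 9.32 and 10.4 in the mutants, while the other 3 genes together stay between 14.4 and 18.1 in all 8 libraries.

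The 3 other genes of the Neuralized family on the list were not called. Neurl3 had the smallest p, at −0.46 ± 0.21 on the log2 scale (SE; limma adjusted p = 0.327) and 4.62 against 6.52 CPM, and Neurl4 stood at −0.01. Of 19 tested genes of ligand endocytosis, the step that ubiquitination by MIB1 sets off, none was called. They lay between −0.16 and 0.10 on the log2 scale with a median of −0.02, against 0.001 for all genes tested. Eps15, an endocytic adaptor gene, had the smallest p at 0.10 (limma adjusted p = 0.465), the ubiquitin-binding epsin genes Epn1, Epn2 and Epn3 stood at −0.09, 0.03 and 0.02, and the dynamin gene Dnm2 at 0.02. Of 6 genes of centriolar satellite proteins, some of them further substrates of MIB1, none was called. Pcm1, which encodes the satellite scaffold, had the smallest p at 0.18 ± 0.07 (SE; limma adjusted p = 0.236), and the list median was 0.13.

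Adam10 (ENSMUSG00000054693), the main protease of the ligand-dependent receptor cleavage, was the most abundant member per length. The mutants gave 259, 243, 217 and 236 CPM and wild type 207, 218, 231 and 222 CPM. The groups overlapped, with mutant replicate 1 highest and mutant replicate 3 among the wild-type values. The difference was 8.77% with a 95% interval of −0.299% to 18.7% (limma adjusted p = 0.355), so it did not pass the test. Adam17 (ENSMUSG00000052593), known as the TNF-alpha converting enzyme, gave 68.7, 72.1, 68.8 and 68.5 CPM in the mutants and 69.8, 64.8, 64.6 and 69.9 CPM in wild type. These overlapped too, and the change of 3.41% had a 95% interval of −4.76% to 12.3% (limma adjusted p = 0.74).

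Of 7 tested genes for tetraspanins that escort ADAM10 and iRhoms that escort ADAM17, none was called. Tspan15 had the smallest p, at −0.34 ± 0.13 (SE; limma adjusted p = 0.254) and 5.79 against 7.33 CPM, and the iRhom gene Rhbdf2, at −0.21, also had no overlap between groups. Their median was −0.12. None of 4 tested inhibitor genes was called either, with Reck, a membrane-anchored metalloprotease inhibitor gene, at 0.17 (limma adjusted p = 0.353) and Timp3, which inhibits ADAM17, at 0.01. Of 9 other membrane-bound ADAM genes 1 rose. This was Adam19, a metalloprotease gene with roles in endocardial cushions, at 183, 198, 204 and 203 CPM in the mutants and 169, 167, 169 and 174 CPM in wild type. Its log2 difference of 0.21 ± 0.05 (SE; limma adjusted p = 0.0376) passed in just 1 of 8 leave-one-out fits, that without mutant replicate 1. Among 9 tested substrates of ADAM10 and ADAM17, Vcam1, a cell adhesion gene, rose from 117 ± 5.88 to 140 ± 10.2 CPM (SD, n = 4; limma adjusted p = 0.0437) and passed in just 1 of 8 such fits, that without mutant replicate 3.

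Ncstn (ENSMUSG00000003458) encodes nicastrin, the large subunit of gamma-secretase that gates access of cut substrates. The mutants gave 94.5, 99.5, 98.8 and 95.5 CPM and wild type 115, 115, 118 and 123 CPM. No mutant library came near the wild-type range, and the spread within each group was small. Ncstn fell by 17.5% (95% interval −23.3% to −11.2%), from 118 ± 3.67 to 97.1 ± 2.42 CPM (SD, n = 4), with a log2 difference of −0.28 ± 0.05 (SE; limma adjusted p = 0.00833). The call was kept in all 24 alternatives, with limma adjusted p values from 0.00543 to 0.0469. Exons of Copa on the opposite strand cover 6.72% of its exon bases, at the start of both genes, and the labels do not give the strand setting of the counting. In the same libraries the summed endothelial and macrophage markers were lower without overlap between groups and the summed erythroid markers overlapped. Of these genes 5 of 14, 3 of 10 and 2 of 8 were called lower, and 13 of 14, 10 of 10 and 8 of 8 had a log2 difference below 0. The part of these cell types in the fall of Ncstn was not tested.

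Aph1a (ENSMUSG00000015750), which encodes the scaffold subunit, was lower by less. The mutants gave 104, 106, 109 and 111 CPM and wild type 117, 117, 115 and 122 CPM. The groups did not overlap, but the gap between the highest mutant and the lowest wild-type library was narrow. The change of −8.82% (95% interval −15.2% to −1.95%) was not called (limma adjusted p = 0.209). Exons of Car14 on the opposite strand cover 15.5% of the exon bases of Aph1a.

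Psen2 (ENSMUSG00000010609) encodes presenilin 2, a catalytic subunit of the complex. The mutants gave 9.08, 11.7, 10.5 and 12 CPM and wild type 12.8, 13.9, 13.9 and 12 CPM, from 70 to 125 counts per library. Mutant replicate 1 was lowest, and mutant replicate 4 and wild-type replicate 4 met at the border between the groups. The change of −18% was as large as that of Ncstn but less precise, with a 95% interval from −31% to −2.68%, and it was not called (limma adjusted p = 0.262).

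**Figure D3:**
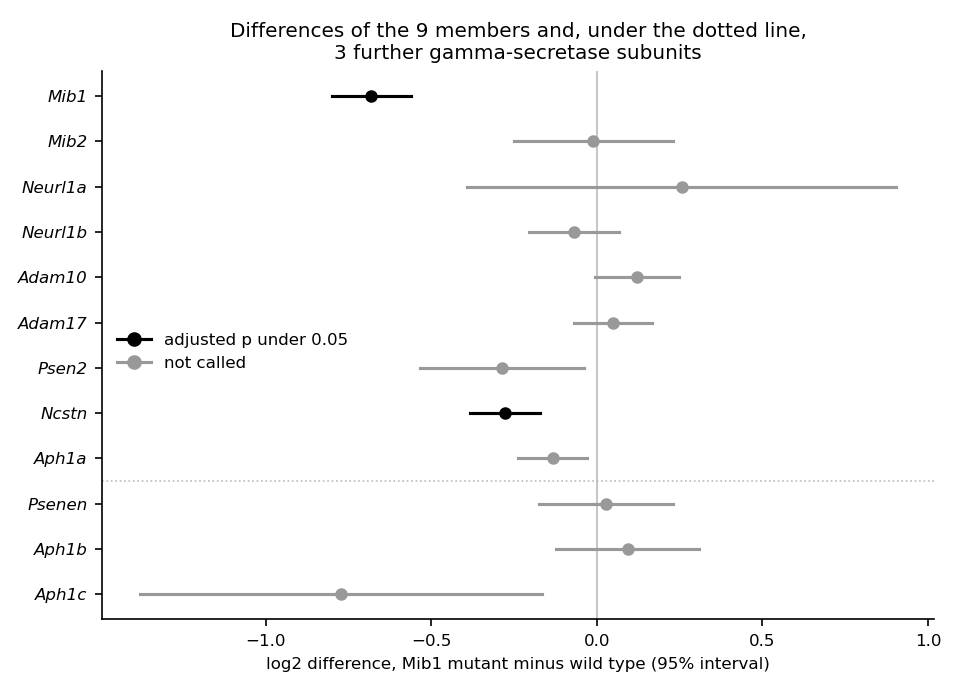
Log2 difference between Mib1 mutant and wild-type libraries (horizontal axis, points) with its 95% interval (lines) for the 9 members and, under the dotted line, 3 further gamma-secretase subunit genes; black marks genes with a limma adjusted p under 0.05. Mib1 at −0.68 and Ncstn at −0.28 are the called members, the intervals of Psen2 and Aph1a end just below 0, and the interval of Neurl1a is the widest of the members.

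None of 3 further subunit genes of the complex was called. Psenen, the gene of the small subunit that activates the complex, stood at 0.03 ± 0.09 on the log2 scale (SE; limma adjusted p = 0.927) and Aph1b at 0.09 ± 0.10 (SE; limma adjusted p = 0.722). Aph1c, a near-identical copy of Aph1b whose reads may be shared with it, was at −0.77 ± 0.28 (SE; limma adjusted p = 0.209), with 0.886 ± 0.0112 CPM in the mutants and 1.55 ± 0.13 CPM in wild type (SD, n = 4). Aph1c rested on 10, 7, 6 and 7 counts in the mutants and 12, 13, 10 and 12 in wild type. With counts this low, the small SD over 4 libraries is not a measure of precision. With no trend in the variance model Aph1c was called (limma adjusted p = 0.00223), a call that rests on that SD. Whether the difference of Ncstn itself differs from those of Psenen or Aph1b was not tested. Per length of exon, Aph1a at 41.2 ± 1.04, Ncstn at 40.6 ± 1.27 and Psenen at 36 ± 1.15 CPM per kb were near each other in wild type, against 5.76 ± 0.4 for Psen2 and 4.35 ± 0.569 for Aph1b. In the mutants Aph1a stood at 37.6 ± 1.13 and Ncstn at 33.5 ± 0.833 CPM per kb (SD, n = 4). The share of Aph1a in the summed level of the Aph1 genes was 88.6% to 91.3% in wild type and 87.7% to 89.4% in the mutants.

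Ordered by level per length, the members ran in wild type from Adam10 at 47.7 ± 2.16 CPM per kb through Aph1a, Ncstn, Mib1, Adam17, Neurl1b, Mib2 and Psen2 to Neurl1a. The ranges over libraries overlapped between Aph1a and Ncstn, between Mib1 (14.7 to 16.3) and Adam17 (14.3 to 15.5), and between Neurl1b and Mib2, so those neighbours did not differ beyond their spread. In the mutants the order changed at 1 place: Adam17, at 15.2 to 16, lay above Mib1, at 9.32 to 10.4. Aph1a (36.3 to 38.9) and Ncstn (32.6 to 34.3) no longer overlapped there. Within groups 6 of the 9 members varied less between libraries than the median gene tested, with a residual SD of 0.04 for Aph1a and 0.0406 for Ncstn on the log2 scale against a median of 0.133. Neurl1a at 0.468, Mib2 at 0.196 and Psen2 at 0.147 varied more.

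Of 9 tested receptor and ligand genes 1 was called, the ligand gene Dll1, lower at 4.85 to 6.48 CPM in the mutants and 9.94 to 11.4 CPM in wild type (limma adjusted p = 0.00121). The list median was −0.26, and 8 of the 9 lay below 0, against 6833 of 13740 genes tested. Lower values without overlap between groups held for 3 of the 9, Dll1 among them, against 4.65% of all genes. Among 6 genes of receptor glycosylation and of the first cleavage, in the secretory pathway, none was called, with the convertase gene Furin of smallest p at −0.08 (limma adjusted p = 0.672) and the O-fucosyltransferase gene Pofut1 at −0.06. Of 13 tested genes of receptor ubiquitin ligases and trafficking none was called, although 10 of the 13 lay above 0 with a median of 0.10, against 6907 of 13740 genes tested; Nedd4l had the smallest p at 0.13 ± 0.05 (SE; limma adjusted p = 0.283), the ligase gene Itch stood at 0.10 and Numb, a Notch inhibitor gene, at 0.15. Among 9 tested nuclear effectors and targets, Hey2 rose (0.25; limma adjusted p = 0.0238) and Hey1 fell (−0.40; limma adjusted p = 0.0347), calls lost in 4 and 6 of 8 leave-one-out fits (both hold without mutant replicate 3), and Rbpj stood at 0.17. Of 14 other gamma-secretase substrates Cdh2, the gene of N-cadherin that joins cardiomyocytes, rose from 600 ± 6.19 to 692 ± 25.2 CPM (SD, n = 4; limma adjusted p = 0.0268), a call kept in 2 of these fits (without mutant replicate 1 or 3), and the median was −0.03.

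**Figure D4:**
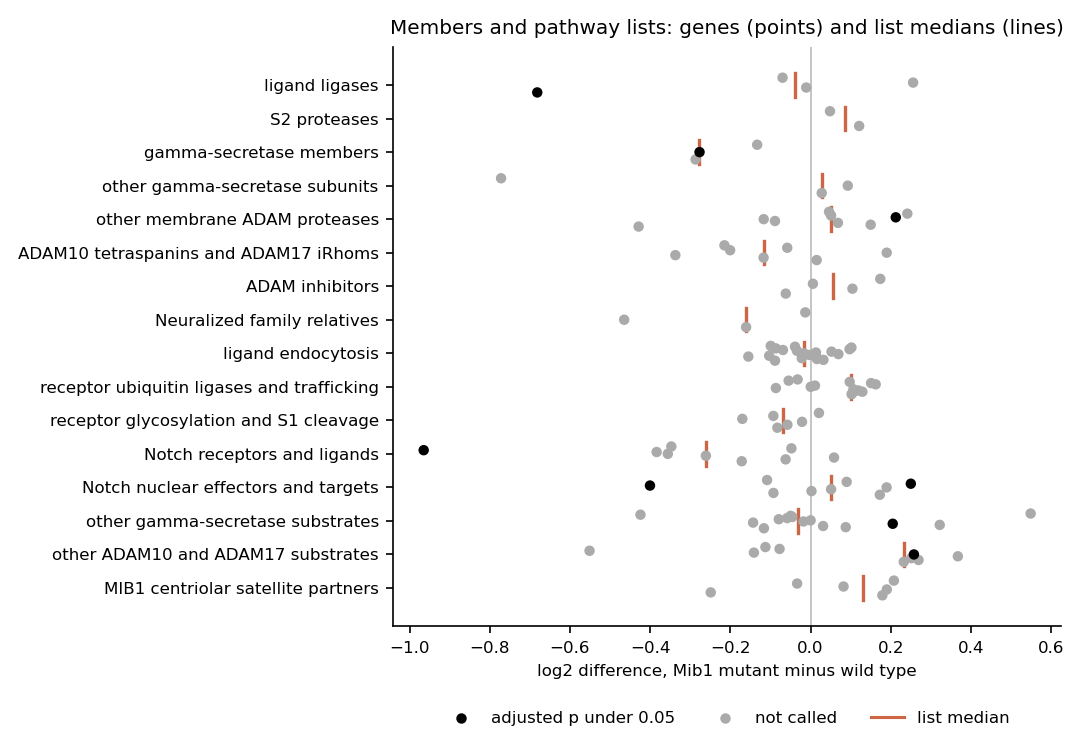
Log2 difference between Mib1 mutant and wild-type libraries (horizontal axis) of each tested gene (points) in the 3 groups of members and 13 other lists, with list medians as orange lines; black marks genes with a limma adjusted p under 0.05. Ligand endocytosis genes lie within 0.16 of 0, and the called genes below 0 are Mib1, Ncstn, Dll1 and Hey1, although some genes that were not called, such as Aph1c at −0.77, lie as far below 0.

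By the root mean square distance between profiles over 8 libraries, each centred on its own mean, the tested genes nearest to Mib1 among 13313 were Plxnc1 (0.0773), Mest (0.0791) and Aplnr (0.0985), against a median distance of 0.373. Plxnc1, a plexin gene, was at 29.6 ± 0.499 and 44.4 ± 0.589 CPM in mutants and wild type, the imprinted gene Mest at 1520 ± 112 and 2210 ± 91.2 CPM, and Aplnr, the apelin receptor gene of endothelium, at 30 ± 1.03 and 47.3 ± 3.35 CPM (SD, n = 4). All 3 were called lower, at −0.58, −0.54 and −0.65 on the log2 scale. Nearest to Ncstn were Cox10 (0.0338), a gene of haem synthesis for cytochrome oxidase, Rangrf (0.0345) and Lcp1 (0.047), a leukocyte actin-bundling gene, at −0.28, −0.30 and −0.32. Of these Cox10 and Lcp1 were called (limma adjusted p = 0.0231 and 0.0216), each past the threshold in 2 of 8 leave-one-out fits (without mutant replicate 1 or 3), and Rangrf was not (limma adjusted p = 0.0766). The distance largely reflects the size of the group difference and is a description.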

How the data were processed

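Polyadenylated RNA was measured in 8 pools. The submitters' processing notes name cutadapt 1.2.1, RSEM 1.16, Bowtie2 0.12.7 (version as named), limma, edgeR and the build mm9, with no roles. The deposited values are a score: log2 CPM (prior 0.5 counts) times a constant per column, so that each column sums to 1000000. Dividing each column by (second lowest minus lowest value)/log2(3) gave log2 CPM, and 100% of values came back as whole counts within 0.001. Symbols and exon lengths came from GENCODE M21, which matched 13428 genes, and promoters from RefSeq (GRCm38.p6); other positions are left out because the builds differ.

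Genes averaging log2 CPM 0 or more went into limma 3.58.1 in R 4.3.3 (eBayes with trend, group only, all 8 libraries, two-sided), a pipeline also tested on simulated data. With voom on the recovered counts, an alternative, limma called 316 genes against 308. In all 24 alternatives were used, among them the main fit read again at thresholds of 0.01 and 0.1.

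The text names all members, from each pathway list up to 4 called genes or else the gene of smallest p, and the 3 nearest profiles of Mib1 and Ncstn. Other genes were named after their values were seen. Members, lists and tests were chosen with earlier results of these data known. One result is not reported here. Replicate numbers occur in both groups, but same-numbered libraries correlated at −0.038 to 0.1 after removal of group means, so they were not used as pairs. Replicates of a group differed by more than counting noise (chi-square per gene 3.22 to 9.43 between mutant libraries and 1.96 to 4.16 between wild-type libraries). The pairs that hold mutant replicate 1, the deepest library, gave 5.04, 9.43 and 7.79.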

Additional observations from a re-analysis of the deposited data

Results flagged for a closer look

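The outlier check took 88 groups of 4 libraries, for 44 of the genes whose values the text gives. In 5 groups the gap of a library to the others exceeded Dixon's critical value at the 95% level. By chance about 1 of 20 groups exceeds it. Neurl1b stood at 55.3 CPM in mutant replicate 4, against 49.2 to 49.7 CPM in the other mutants, and at 56.8 CPM in wild-type replicate 1, against 51.8 to 52.6 CPM in the other wild-type libraries. Adam17 stood at 72.1 CPM in mutant replicate 2, against 68.5 to 68.8 CPM. Dll1 stood at 9.94 CPM in wild-type replicate 1, from 69 counts, against 11.2 to 11.4 CPM. Itch stood at 78 CPM in wild-type replicate 1, against 86.1 to 87.6 CPM.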

How the results depend on the processing

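In all 24 alternatives 2 members were called, and Mib1 (−0.71 to −0.66 on the log2 scale) and Ncstn (−0.29 to −0.26) were called and lower in each. Mib2 ranged from −0.0816 to 0.0972 and Neurl1a from −0.0476 to 0.4154 with a library left out, changing sign in 3 and 1 of 8 fits, never called. Copa, at −0.0033, changed sign with quantile (0.0012) and total count scaling (0.0017), array weights (0.0118) and voom (5e-04), and ranged from −0.0408 to 0.0356 with a library left out. Of the genes named that were not called, Neurl4 (−0.0526 to 0.0338), Epn3 (−0.0153 to 0.0538), Dnm2 (−0.0107 to 0.0591), Timp3 (−0.0374 to 0.0589), Psenen (−0.0426 to 0.1185) and Aph1b (−0.0014 to 0.1505) changed sign with a library left out, Neurl4 also with array weights (0.0171) and Timp3 with upper quartile scaling (−0.0012).

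The count of all genes called, 308 (136 higher, 172 lower), was 179 (70, 109) with no variance trend, 490 (226, 264) with array weights, and 119 (54, 65) and 551 (252, 299) at thresholds of 0.01 and 0.1. With a library left out it ranged from 146 to 477 (64 to 208 higher, 81 to 269 lower): 146, 147 and 161 without wild-type replicates 1, 2 and 3, and 183 and 477 without mutant replicates 2 and 3. The cause was not tested. With the replicate block 240 genes were called, Mib1 and Ncstn among them (limma adjusted p = 0.00019 and 0.033); Hey1, Hey2, Cdh2, Adam19, Cox10 and Lcp1 were not, while 1 of 8 libraries was most like its own number in the other group. With a pseudocount of 5 CPM Dll1 stood at −0.59 and Aph1c at −0.15. With no variance trend Hey2, Vcam1, Cdh2, Adam19 and Mindy2 lost their calls and Aph1c and Rangrf gained one. Among the members depth limits Neurl1a and Psen2 most, and Aph1c rested on 6 to 13 counts per library.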

Other observations

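Genes adjoining the 9 members in the order of the annotation were looked at after the members' values were known. Of 18 such tested genes 1 was called, against 2.24% of all genes tested. This was Mindy2, a deubiquitinase gene next to Adam10, which rose from 49.5 ± 1.31 to 62.4 ± 5.15 CPM (SD, n = 4; 0.33 on the log2 scale, limma adjusted p = 0.0203) and was past the threshold in 4 of 8 leave-one-out fits. Abhd3 and Gata6, beside Mib1, were not called (0.85 and 0.14 on the log2 scale, limma adjusted p = 0.224 and 0.235). Abhd3 was low, at 2.89 against 1.69 CPM. Both lay higher in every mutant than in every wild-type library, as did Mindy2 and Car14, and no adjoining gene showed the opposite. Higher values without overlap held for 4.27% of all genes, and the cause was not tested. Copa, a coatomer gene that starts beside Ncstn on the other strand, stood at 341 ± 19.1 CPM in the mutants and 341 ± 21 CPM in wild type, a log2 difference of −0.0033 ± 0.0571 (SE), while Ncstn was 17.5% lower.

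In the mutant libraries the order of Mib1 levels was the reverse of that of Mib2 levels. Mutant replicates 1 and 2 had the higher Mib1 levels (106 and 103 CPM) and the lower Mib2 levels (23 and 27.4 CPM), and mutant replicates 3 and 4 had 95.3 and 96.3 CPM of Mib1 and 33.4 and 32.8 CPM of Mib2. These orders were not particular to this pair. In the mutants Adam10, Pcm1 and Itch ran in the order of Mib1. Epn1 (78.7, 85.1, 99.4 and 89.7 CPM) and Dnm2 (75.2, 82.7, 86.9 and 85.1 CPM) ran in that of Mib2, and Aph1a in neither. Mutant replicate 1 was also the deepest library, with 11506082 counts, and the lowest of the mutants for Psen2, Ncstn and Aph1a. In wild type, replicates 4 and 2 had the highest Mib1 levels (167 and 166 CPM) and the lowest Mib2 levels (26.9 and 28.3 CPM), and replicates 3 and 1 had 160 and 150 CPM of Mib1 and 32.4 and 28.7 CPM of Mib2. With 4 libraries a group this was not tested.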
